A study of Mus musculus and Homo sapiens with 24 samples.

Results

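The transcripts described here are the long intergenic non-coding RNAs of K-562, a chronic myelogenous leukaemia line with erythroid features. A gene was taken as a member when its GENCODE symbol was LINC followed by a number and its mean over the 12 K-562 libraries was at least 1 CPM, that is 1 count in a library scaled to 1000000 gene counts. For this selection, counts were divided by the gene counts of the library, without the ERCC spike-in RNAs. Of 58721 human gene rows, 2261 carried such a symbol, 845 of these had no count in any library, and 213 were members. The mean level chose the members, so levels are given as a description. The 3 members nearest to the limit were *LINC02471*, *LINC02367* and *LINC01783*, at means of 1.01, 1.00 and 1.00 CPM. The 3 nearest genes left out were *LINC00265*, *LINC02981* and *LINC01229*, at 0.991, 0.972 and 0.955 CPM.

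The 4 groups of 3 libraries were K-562 cells wild type for *TET2* (WT) or carrying a *TET2* knockout (KO), each with a control hairpin (shControl) or a hairpin against *MBD6* (shMBD6). All groups carried an integrated hairpin vector and were grown under puromycin. The knockout was an existing line received by the study, so genotype and line cannot be told apart. The libraries were made from polyadenylated RNA of cultured cells, and the question put to them was how loss of TET2 and depletion of MBD6, alone and together, change gene expression.

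Long intergenic non-coding RNAs are spliced, mostly polyadenylated transcripts made by RNA polymerase II from their own promoters, outside protein-coding genes. They are usually less abundant and more restricted to a cell type than messenger RNAs. Many are kept on or near chromatin, some act on transcription in their neighbourhood, and a few are translated into small proteins. TET2 oxidizes 5-methylcytosine in DNA and RNA, and MBD6 is a methyl-binding-domain protein of the complex that removes ubiquitin from histone H2A.

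Each library held between 27625013 and 39877202 gene counts. *MBD6* was lower in each shMBD6 library than in each shControl library of the same genotype, at 82.5 ± 5.60 and 38.0 ± 1.09 CPM (SD, n = 3) in WT and 77.2 ± 4.59 and 43.3 ± 0.80 CPM in KO. *TET2* was at 30.8 ± 2.63 CPM in WT and 33.3 ± 0.69 CPM in KO with shControl, so the gene-level count did not separate the genotypes and does not test the knockout label. The erythroid genes *GATA1*, *TAL1* and *KLF1* were at or above 75.8 CPM in every group mean. The B-cell marker *MS4A1* and the T-cell marker *CD2* were at or below 0.06 CPM, although the cells are labelled lymphoblasts. Of the lymphoid list, *CD3D* was highest, at 5.61 to 11.3 CPM. Of the fibroblast list, *DCN* and *PDGFRA* were at or below 0.58 CPM. *COL1A1* was at 1.03 CPM in WT shControl, 9.81 CPM in WT shMBD6, 0.79 CPM in KO shControl and 5.22 CPM in KO shMBD6. The fetal globin gene *HBG2* was at 1499 CPM in WT and 463 CPM in KO with shControl, and the part of these genes' differences in the results below was not tested.

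Values below are CPM after trimmed mean of M-values (TMM) normalisation, which sets levels relative to the other genes. Means over all 12 libraries, sums over members and levels per kb are CPM without TMM. So are the counts of groups in which a member reached 1 CPM. Relative to the ERCC RNAs, the median of all tested genes was shifted by 1.26 (log2) in KO against WT with shControl, by 0.31 with shMBD6, by 1.13 for shMBD6 in WT and by 0.18 for shMBD6 in KO. ERCC counts were 241715, 351502 and 251257 in the WT shControl libraries and from 104291 to 145366 in each library of the other groups. Per gene count, they were higher in all 3 WT shControl libraries than in any other library. The shifts of 1.26 and 1.13 both compare a group with WT shControl. Why this group stood apart was not tested. Given these shifts, changes are reported relative to the median gene. In bulk RNA, a smaller share of cells with a transcript and less of it in each cell cannot be told apart. Differences were tested with edgeR's quasi-likelihood test over 17936 genes, with Benjamini-Hochberg adjustment, and a gene was called at an adjusted p under 0.05. All 213 members entered this test.

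Most members were of low abundance. Their means were from 1 to under 3 CPM for 95 genes, from 3 to under 10 CPM for 64, from 10 to under 30 CPM for 35 and at or above 30 CPM for 19. Per kb of exon, the median member stood at 1.14 CPM per kb, whereas the median protein-coding gene at or above 1 CPM stood at 6.07 CPM per kb. Summed without TMM, the members made up 1948 to 1954 CPM in WT shMBD6 libraries and 2133 to 2172 CPM in WT shControl. In KO shMBD6 they made up 2236 to 2317 CPM and in KO shControl 2305 to 2334 CPM. On this scale, these 4 ranges of the summed level overlapped only between both KO groups.

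In all 4 groups, 159 members reached 1 CPM, 27 did so in 3 groups, 25 in 2 groups and 2 in 1 group. The name was checked against the annotation (GENCODE release 44, hg38). The gene bodies of 188 members overlapped no protein-coding gene, and 25 overlapped one, 8 on the same strand and 17 on the opposite strand. Exon bases were shared with another gene of any kind by 98 members, 35 of them on the same strand. Whether the counting used strand is not stated, so reads of these genes cannot be assigned with certainty. The annotation gave 204 members as long non-coding RNAs and 9 as transcribed pseudogenes.

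The 10 members with the highest level per kb were *LINC00888*, *LINC00680*, *LINC01610*, *LINC00431*, *LINC00958*, *LINC00674*, *LINC02404*, *LINC01029*, *LINC01287* and *LINC02780*. *LINC00888*, *LINC00680*, *LINC00431* and *LINC00674* are among the 9 pseudogene entries, and their short annotated exons, of 421, 181, 159 and 160 bases, lay largely or wholly within exons of another gene on the same strand. Their level per kb, 106, 101, 51.4 and 18.6 CPM per kb, is therefore uncertain. *LINC01610* (chr6:70394880-70403117, plus strand) shared no exon base and stood at 61.9 CPM per kb, with 76.4 ± 7.38 CPM in WT shControl. *LINC00958*, a transcript studied mostly in epithelial tumours, stood at 21.6 CPM per kb, with 138 ± 3.76 CPM in WT shControl and 109 ± 1.87 CPM in KO shControl. *LINC01287* (chr7:153355365-153413985, minus strand) had the highest mean of all members, 127 CPM, and 12.5 CPM per kb. It was measured at 103, 94.8 and 97.5 CPM in WT shControl and at 169, 174 and 168 CPM in KO shControl, so these groups did not overlap. *LINC01029*, at 14.2 CPM per kb, was at 52.3, 52.8 and 51.7 CPM in WT shControl, 77.9, 73.1 and 78.7 CPM in WT shMBD6, 54.8, 51.1 and 50.3 CPM in KO shControl and 76.1, 73.4 and 68.5 CPM in KO shMBD6. Its shMBD6 libraries were all above its shControl libraries in both genotypes.

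**Figure D1:**
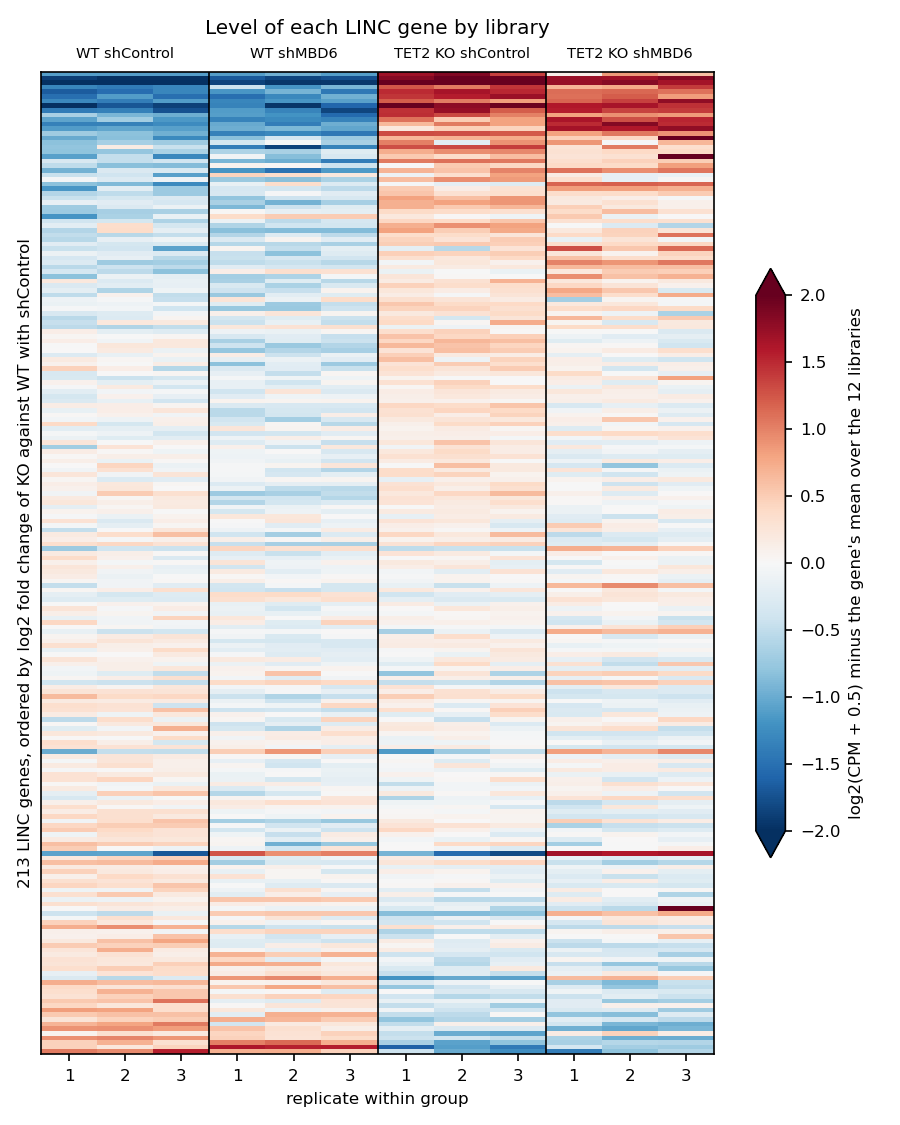
Heat map of the 213 LINC genes (rows, ordered by the log2 fold change of KO against WT with shControl) in the 12 libraries (columns, 3 replicates in each of 4 groups). Colour gives log2(CPM + 0.5) minus the gene's mean over the libraries, from -2 (blue) to 2 (red). The top rows are low in all 6 WT libraries and high in all 6 KO libraries, and KO shMBD6 replicate 3 stands alone for a few rows.

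KO and WT cells differed in these transcripts about as often as in all tested genes. The largest fitted changes were in members close to absence in WT that were expressed in KO. With shControl, 102 of 213 members were called, 58 higher and 44 lower in KO. This is 47.9% of members, where 42.8% of all tested genes were called, 22.2% higher and 20.7% lower. Called with a change of at least 2-fold were 45 members (21.1%), against 10.4% of all tested genes. These shares include members that reached the 1 CPM mean through KO libraries alone, whose rise was fixed by this choice. Of the 159 members at or above 1 CPM in each group, 72 were called with shControl, 37 higher and 35 lower. With shMBD6, 106 members were called, 74 higher and 32 lower, where 44.5% of all tested genes were called, 22.9% higher and 21.6% lower. Of these, 47 (22.1%) changed at least 2-fold, against 10.0% of all tested genes. Of the 159 members at or above 1 CPM in each group, 71 were called with shMBD6, 47 higher and 24 lower. The median log2 fold change of members was 0.03 with shControl and 0.17 with shMBD6, and that of all tested genes was 0.00 and 0.01. With ERCC scaling, 197 members were higher and 3 lower with shControl, and 123 higher and 16 lower with shMBD6.

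The comparisons under the 2 hairpins share no library. Of the members, 45 were higher in KO under both, 24 were lower under both, and 1, *LINC00888*, was lower with shControl and higher with shMBD6. The share of all tested genes called under both hairpins was not counted, so these counts are a description. Across the 213 members the log2 fold changes had a Pearson's r of 0.889 and a Spearman's rho of 0.722, as a description across genes, which are not independent. Across all 17936 tested genes the values were 0.726 and 0.532. The members' values include genes that reached the 1 CPM mean through KO libraries alone. Their rise under both hairpins was fixed by this choice, so the members' values cannot be compared with those of all genes.

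**Figure D2:**
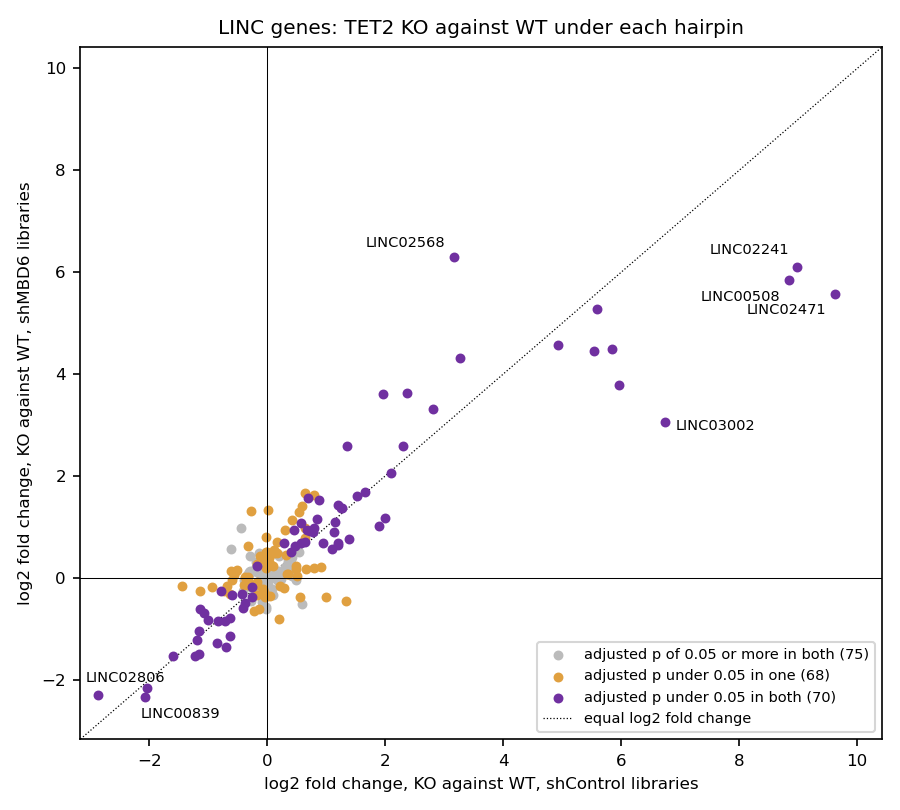
Log2 fold change of KO against WT in shControl libraries (x axis) and in shMBD6 libraries (y axis) for the 213 LINC genes, coloured by whether the adjusted p was under 0.05 in both, in 1 or in neither comparison. In both, 70 genes passed, and most of them lie near the dotted line of equal change. The values over 5 belong to genes near 0 counts in WT and depend on the prior count of the fit.

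Selected on these values, 12 members had means under 0.5 CPM in both WT groups and were called higher in KO under both hairpins. They were *LINC00508*, *LINC01087*, *LINC02241*, *LINC02434*, *LINC00922*, *LINC02505*, *LINC01630*, *LINC00879*, *LINC01602*, *LINC02568*, *LINC03002* and *LINC02471*, on 10 chromosomes. *LINC01087* and *LINC00922* were named after their values were seen. All 12 reached the 1 CPM mean of a member through their KO libraries alone, so their difference between KO and WT was fixed by this choice. It is given as a description, without p-values.

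*LINC02471* (chr12:40156113-40211419, plus strand) overlaps the gene body of *LRRK2* on the same strand, with no shared exon base. *LRRK2* encodes a kinase mutated in familial Parkinson's disease. *LINC02471* had 0 counts in all 3 WT shControl libraries, which allows up to 0.0312 CPM (3 counts over 96307479). In KO shControl it was at 2.97, 3.39 and 2.29 CPM. The difference was therefore at least 93.3-fold, taking 3 counts over the WT group. In shMBD6 libraries its counts were 0, 2 and 0 in WT and 25, 47 and 41 in KO. Reads from introns of *LRRK2* cannot be told apart from reads of *LINC02471* where the annotations overlap.

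*LINC02241* (chr5:20611806-20937800, plus strand) had 1, 0 and 0 counts in WT shControl and 223, 268 and 229 counts in KO shControl. The ratio of the normalised sums was 685.5, with a 95% counting interval of 123 to 27115. In shMBD6 libraries it had 4, 2 and 3 counts in WT and 225, 191 and 236 in KO, a ratio of 72.1 (37.7 to 158). *LINC00508* (chr12:127933689-127983854, minus strand) had 2, 0 and 0 counts in WT shControl and was at 11.3, 10.8 and 11.5 CPM in KO shControl. The ratio was 539 (149 to 4455) with shControl and 59.0 (34.3 to 111) with shMBD6. *LINC03002* (chr6:134520163-134689399, minus strand) had 1, 0 and 1 counts in WT shControl and 89, 79 and 96 in KO shControl, a ratio of 126 (34.5 to 1043). All intervals cover counting error only.

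The remaining members of this set had 4 or more counts over the WT shControl libraries. *LINC02505* was at 0.0631 ± 0.0705 CPM in WT shControl and 4.13 ± 0.262 CPM in KO shControl (log2 fold change 5.97, SE 0.40). *LINC01630* was at 0.0502 ± 0.0869 CPM and 3.73 ± 0.406 CPM (log2 fold change 5.84, SE 0.52). *LINC01602* was at 0.0757 ± 0.0434 CPM in WT shMBD6 and 3.08 ± 0.792 CPM in KO shMBD6 (log2 fold change 5.27, SE 0.42). *LINC02434* was at 0.182 ± 0.167 CPM and 4.39 ± 0.398 CPM in the same groups (log2 fold change 4.57, SE 0.39). *LINC02568* had the largest fitted difference with shMBD6, from 0.0298, 0.0543 and 0.0290 CPM in WT to 3.66, 2.77 and 3.35 CPM in KO (log2 fold change 6.29, SE 0.43). With shControl it was at 0.145, 0.326 and 0.104 CPM and 2.36, 1.40 and 1.85 CPM (log2 fold change 3.17, SE 0.35). The last 3, *LINC01087*, *LINC00879* and *LINC00922*, had log2 fold changes of 5.54, 3.27 and 2.37 with shControl.

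**Figure D3:**
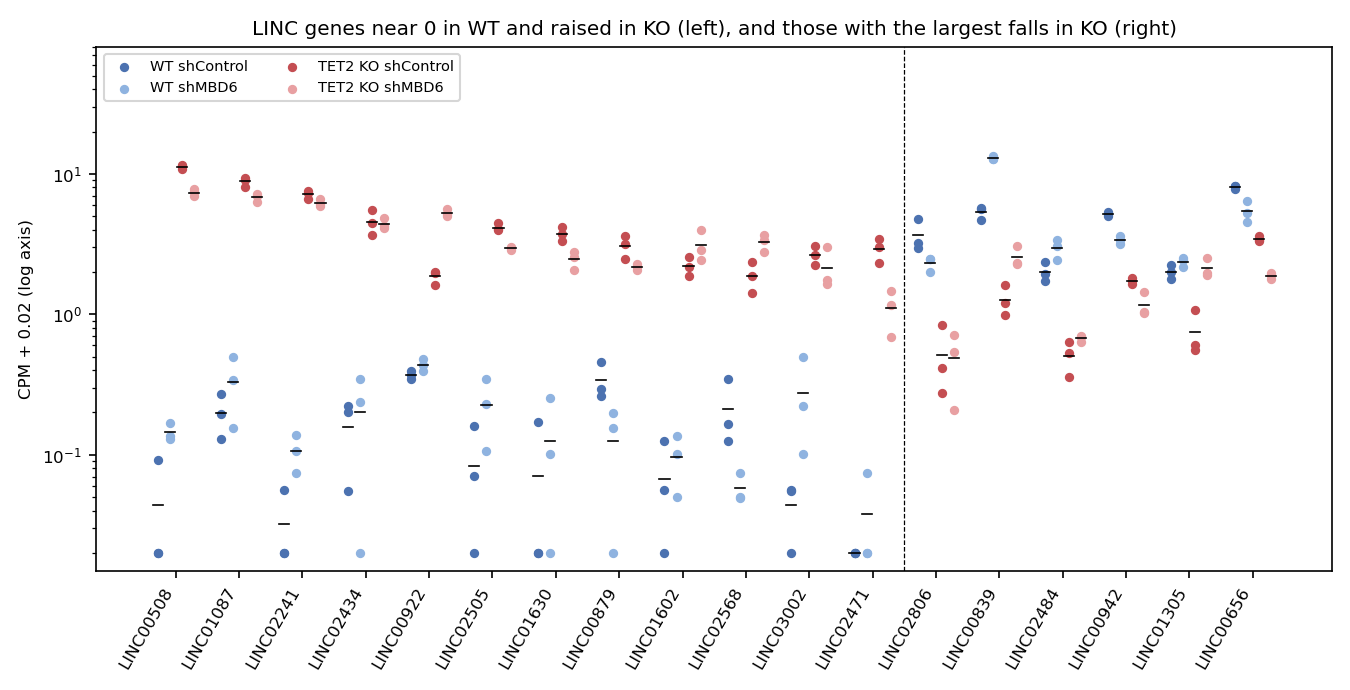
Level in each library (CPM + 0.02, log axis) of the 12 LINC genes near 0 in WT and called higher in KO under both hairpins (left of the dashed line) and of the 6 with the largest falls in KO with shControl (right). Points are single libraries, 3 in each group, and black bars are group means. The 12 genes lie under 0.5 CPM in the WT means by choice.

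The falls in KO were smaller in size and started from measurable levels. *LINC00839* (chr10:42475480-42495337, plus strand) was at 5.69, 4.69 and 5.60 CPM in WT shControl and 0.972, 1.60 and 1.18 CPM in KO shControl (log2 fold change -2.08, SE 0.17, adjusted p = 3.02e-09). With shMBD6 it was at 13.3, 12.7 and 12.8 CPM in WT and 3.07, 2.31 and 2.26 CPM in KO (log2 fold change -2.34, SE 0.15, adjusted p = 4.56e-11). No KO library overlapped a WT library under either hairpin. *LINC02484* fell from 1.99 ± 0.319 CPM to 0.488 ± 0.142 CPM with shControl (log2 fold change -2.03, SE 0.26, adjusted p = 2.12e-06), and from 2.93 ± 0.476 CPM to 0.655 ± 0.0315 CPM with shMBD6 (log2 fold change -2.16, SE 0.24, adjusted p = 3.34e-07). *LINC00942* fell from 5.17 ± 0.181 CPM to 1.71 ± 0.0852 CPM with shControl (log2 fold change -1.60, SE 0.16, adjusted p = 8.35e-08), and its log2 fold change with shMBD6 was -1.54 (adjusted p = 3.44e-07). With ERCC scaling the value with shControl was -0.34 (edgeR, adjusted p = 0.0687).

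*LINC00656* was at 8.02 ± 0.256 CPM in WT shControl and 3.41 ± 0.155 CPM in KO shControl (log2 fold change -1.23, SE 0.13, adjusted p = 1.67e-07), a fall relative to other genes that ERCC scaling turned to a log2 fold change of 0.02. With shMBD6 it was at 5.39 ± 0.929 CPM and 1.86 ± 0.100 CPM (log2 fold change -1.53, SE 0.14, adjusted p = 2.43e-08). *LINC01305* fell with shControl, from 1.78, 2.21 and 1.98 CPM to 1.06, 0.589 and 0.541 CPM (log2 fold change -1.45, SE 0.25, adjusted p = 7.49e-05). With ERCC scaling this value was -0.20 (edgeR, adjusted p = 0.458). *LINC02307* fell with shMBD6, from 1.13, 2.61 and 2.58 CPM to 0.592, 0.554 and 1.09 CPM (log2 fold change -1.49, SE 0.32, adjusted p = 7.50e-04). *LINC02806* had the lowest log2 fold change with shControl, -2.86, at 3.19, 2.94 and 4.77 CPM in WT and 0.824, 0.392 and 0.255 CPM in KO (adjusted p = 1.06e-06). With shMBD6 its log2 fold change was -2.29 (adjusted p = 2.51e-05). It shares 636 of its 1918 exon bases with another gene on the same strand and 864 with one on the opposite strand, so its level is uncertain.

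Promoter windows are shown for the 2 members with the largest fitted rise with shControl among those higher in KO under both hairpins, for *LINC00839*, a member that fell under both, and for the 2 with the largest positive and negative interaction below. Each runs from 250 bases before to 50 bases after the annotated start and is written 5′ to 3′ on the strand of the gene, from hg38. Capitals mark CG dinucleotides and 5 motifs on either strand: the GATA boxes AGATAA and TGATAA, the TATA box with the letters TATAAA, the CCAAT box, and the GC box with the letters GGGCGG.
LINC02471, chr12:40155863-40156162, plus strand: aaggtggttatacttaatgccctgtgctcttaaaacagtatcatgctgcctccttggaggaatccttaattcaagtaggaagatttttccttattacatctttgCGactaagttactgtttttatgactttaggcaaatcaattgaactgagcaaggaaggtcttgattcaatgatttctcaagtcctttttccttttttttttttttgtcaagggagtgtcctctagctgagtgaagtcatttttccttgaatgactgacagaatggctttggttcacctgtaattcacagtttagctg
LINC02241, chr5:20611556-20611855, plus strand: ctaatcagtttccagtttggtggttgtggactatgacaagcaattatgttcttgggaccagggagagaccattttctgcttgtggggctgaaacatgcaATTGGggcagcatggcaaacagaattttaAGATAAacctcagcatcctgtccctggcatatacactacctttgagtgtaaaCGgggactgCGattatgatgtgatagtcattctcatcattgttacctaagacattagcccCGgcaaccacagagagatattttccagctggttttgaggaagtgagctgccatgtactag
LINC00839, chr10:42475230-42475529, plus strand: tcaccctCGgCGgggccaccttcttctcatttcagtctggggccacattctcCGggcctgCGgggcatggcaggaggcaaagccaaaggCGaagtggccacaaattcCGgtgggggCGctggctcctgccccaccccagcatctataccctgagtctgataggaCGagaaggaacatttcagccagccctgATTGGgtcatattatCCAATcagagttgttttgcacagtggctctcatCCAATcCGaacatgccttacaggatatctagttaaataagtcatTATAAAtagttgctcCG
LINC03002, chr6:134689318-134689617, minus strand: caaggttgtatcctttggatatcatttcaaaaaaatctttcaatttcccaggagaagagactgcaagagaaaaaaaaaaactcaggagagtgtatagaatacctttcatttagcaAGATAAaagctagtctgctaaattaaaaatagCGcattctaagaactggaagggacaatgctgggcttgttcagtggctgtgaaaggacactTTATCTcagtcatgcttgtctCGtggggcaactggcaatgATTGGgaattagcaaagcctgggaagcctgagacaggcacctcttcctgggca
LINC02568, chr15:63389980-63390279, plus strand: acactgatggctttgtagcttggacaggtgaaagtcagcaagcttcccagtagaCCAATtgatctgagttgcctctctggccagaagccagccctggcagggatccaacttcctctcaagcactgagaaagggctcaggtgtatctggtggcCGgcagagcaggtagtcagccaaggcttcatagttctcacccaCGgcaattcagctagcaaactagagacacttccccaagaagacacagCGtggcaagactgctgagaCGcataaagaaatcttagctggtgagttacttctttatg
The 2 windows of the risers held 1 and 3 CG dinucleotides, and that of *LINC00839* held 10. AGATAA stood in the window of *LINC02241* and, on both strands, in that of *LINC03002*, and CCAAT in those of *LINC02241*, *LINC00839*, *LINC03002* and *LINC02568*. TATAAA stood in the *LINC00839* window, and the *LINC02471* window held none of the 5 motifs. A match is a description of the letters and not evidence of a bound factor.

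Over all members, the median promoter window had 51.0% C + G and an observed-over-expected CG ratio of 0.42, and 74 of 213 (34.7%) had a ratio over 0.6. The corresponding share was 51.8% of the 1365 long non-coding genes at or above 1 CPM, 21.7% of all 14734 long non-coding genes and 67.5% of 19831 protein-coding genes. Among the 45 members higher in KO under both hairpins, 9 (20.0%) had a ratio over 0.6, against 9 of 24 (37.5%) of those lower under both and 56 of 144 (38.9%) of the other members. AGATAA or TGATAA on either strand stood in 18 of the 45 (40%), in 3 of the 24 (12.5%) and in 26 of the 144 (18.1%). The share was 22.1% of all members and 15.2% of the long non-coding genes at or above 1 CPM. It was 23.0% of all 14734 long non-coding genes and 11.3% of protein-coding genes. TATAAA stood in 4 of the 45 (8.89%), 7 of the 24 (29.2%) and 18 of the 144 (12.5%). These shares are descriptions of groups chosen on the differences, without a test.

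Some chromosomes were shifted as a whole between the lines. The median log2 fold change of all tested genes in KO against WT with shControl was 0.55 on chromosome 15, 0.30 on chromosome 8 and 0.21 on chromosome 7. Of the 26 members on these 3 chromosomes, which were picked on these medians, 13 were called higher and 2 lower with shControl. Of all tested genes, 63.9% on chromosome 15, 45.9% on chromosome 8 and 39.2% on chromosome 7 were called higher. Without them, 87 of 187 members were called with shControl (45 higher) and 90 with shMBD6 (60 higher). *LINC02568* is on chromosome 15, *LINC01602* on chromosome 8 and *LINC01287* on chromosome 7, and the part of the whole-chromosome shift in their difference was not tested. On chromosome 4 the median of all tested genes was 0.00 and 22.1% of them were called higher with shControl. Of its 17 members, 9 were called higher with shControl, and the same 9 under both hairpins. Those 9 were *LINC02616*, *LINC02377*, *LINC01097*, *LINC01094*, *LINC02481*, *LINC02434*, *LINC00504*, *LINC02505* and *LINC02485*, a chromosome singled out after the values were seen. *LINC02434* and *LINC02505* reached the 1 CPM mean through KO libraries alone, so their rise was fixed by this choice. The share of all tested genes on chromosome 4 called under both hairpins was not counted, so these counts are a description.

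With the *MBD6* hairpin more members were lower than higher, relative to the median gene. In WT cells, 98 members were called, 28 higher and 70 lower with shMBD6, where 39.6% of all tested genes were called, 20.4% higher and 19.2% lower. At least 2-fold changes were seen in 26 members (12.2%), against 6.28% of all tested genes. In KO cells 88 members were called, 36 higher and 52 lower, where 34.8% of all tested genes were called, 18.5% higher and 16.3% lower. There, 21 members (9.86%) changed at least 2-fold, against 5.75% of all tested genes. The median log2 fold change of members was -0.18 in WT and -0.15 in KO, and that of all tested genes was -0.01 and 0.00. Other long non-coding genes had the same skew, with 77 higher and 324 lower in WT and 97 higher and 211 lower in KO. With ERCC scaling the split of members turned, to 180 higher and 1 lower in WT, and 56 higher and 33 lower in KO.

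The shMBD6 comparisons in WT and KO share no library. Of the members, 16 rose in both genotypes, 38 fell in both and 3 went opposite ways. The share of all tested genes called in both genotypes was not counted, so these counts are a description. Across members the log2 fold changes had a Pearson's r of 0.439 and a Spearman's rho of 0.485, and across all tested genes 0.400 and 0.384. The comparison of KO with WT and that of shMBD6 in KO share the KO shControl libraries, so no relation between them is given.

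*LINC01121* (chr2:45164816-45323397, minus strand) had the largest log2 fold change with shMBD6 in KO and the next to largest in WT. It was at 0.543, 0.552 and 0.174 CPM in WT shControl and 4.76, 3.61 and 3.91 CPM in WT shMBD6 (log2 fold change 3.23, SE 0.31, adjusted p = 6.88e-08). In KO it was at 0.648, 0.252 and 0.127 CPM with shControl and 6.49, 6.13 and 6.39 CPM with shMBD6 (log2 fold change 4.18, SE 0.31, adjusted p = 1.90e-09). All shMBD6 libraries lay above all shControl libraries in both genotypes. It shares 429 of 4943 exon bases with a gene on the opposite strand.

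Of the other 5 largest rises in WT, 4 were in members near 0. *LINC03002* had 1, 0 and 1 counts in WT shControl and 16, 3 and 7 in WT shMBD6, a ratio of 11.9 (2.98 to 104; edgeR, adjusted p = 0.00468). *LINC02241* went from 1 count over the WT shControl libraries to 9 over the WT shMBD6 libraries, a ratio of 8.25 (1.14 to 362; edgeR, adjusted p = 0.0277). Its call was lost without WT shControl replicate 2 (adjusted p = 0.150), without WT shControl replicate 3 (0.0948) and without WT shMBD6 replicate 1 (0.0986). *LINC00508* went from 2 to 13 counts, a ratio of 5.96 (1.35 to 54.4; edgeR, adjusted p = 0.0144), and its call was lost without WT shControl replicate 2 (0.132) or 3 (0.0728). *LINC02505* went from 6 to 22 counts (edgeR, adjusted p = 0.0365), and its call was lost without replicate 1 or 2 of either WT group (adjusted p from 0.0677 to 0.207). *LINC01049* was measured above this range, at 0.254, 0.602 and 1.04 CPM with shControl and 1.70, 1.93 and 1.94 CPM with shMBD6 (log2 fold change 1.54, SE 0.34, adjusted p = 0.00105).

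Falls in WT were led by *LINC01228*, from 0.652, 1.73 and 0.974 CPM to 0.268, 0.0543 and 0.290 CPM (log2 fold change -2.51, SE 0.45, adjusted p = 1.50e-04). *LINC01088* (chr4:78939485-79309673, plus strand) was the most abundant of them, at 84.0, 96.9 and 83.0 CPM with shControl and 34.2, 38.1 and 37.2 CPM with shMBD6 (log2 fold change -1.27, SE 0.07, adjusted p = 7.63e-12). Its shMBD6 libraries were all below its shControl libraries. With ERCC scaling its log2 fold change was -0.13 (edgeR, adjusted p = 0.0611). *LINC01134* fell from 2.12 ± 0.151 CPM to 0.804 ± 0.520 CPM (log2 fold change -1.41, SE 0.34, adjusted p = 0.00248) and *LINC01801* from 2.42 ± 0.646 CPM to 0.980 ± 0.0799 CPM (log2 fold change -1.30, SE 0.23, adjusted p = 9.75e-05). With ERCC scaling these were -0.27 and -0.16, and neither was called, nor were the falls of *LINC02568* and *LINC00879* below (-1.22 and -0.43). *LINC02568* went from 20 counts over the WT shControl libraries to 4 over the WT shMBD6 libraries (edgeR, adjusted p = 0.00803; 0.126 without WT shControl replicate 2). *LINC00879* went from 30 to 11 counts (edgeR, adjusted p = 0.0287; 0.110 without WT shControl replicate 1 and 0.105 without WT shMBD6 replicate 3).

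In KO cells the rises after *LINC01121* were *LINC02972*, *LINC00624*, *LINC00504*, *LINC02780* and *LINC01305*. *LINC00624* (chr1:147258885-147517875, minus strand) was at 4.59, 5.24 and 5.00 CPM with shControl and 17.6, 18.4 and 15.8 CPM with shMBD6 (log2 fold change 1.80, SE 0.10, adjusted p = 4.16e-11). *LINC02780* was at 11.0, 10.9 and 11.4 CPM and 33.4, 30.6 and 34.0 CPM (log2 fold change 1.56, SE 0.09, adjusted p = 1.89e-11). *LINC02972* went from 1.95 ± 0.537 CPM to 6.82 ± 0.687 CPM (log2 fold change 1.81, SE 0.19, adjusted p = 3.16e-07) and *LINC00504* from 1.50 ± 0.159 CPM to 4.53 ± 0.0808 CPM (log2 fold change 1.59, SE 0.21, adjusted p = 6.40e-06). In each of these 4 genes the shMBD6 libraries did not overlap the shControl libraries in either genotype.

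The largest falls in KO were in *LINC02471*, *LINC01132*, *LINC02901*, *LINC02897*, *LINC01126* and *LINC02583*. *LINC02471*, counted in KO almost alone, was at 2.97, 3.39 and 2.29 CPM with shControl and 0.673, 1.45 and 1.14 CPM with shMBD6 (log2 fold change -1.42, SE 0.32, adjusted p = 0.00198). *LINC01132* fell from 6.39, 7.43 and 6.91 CPM to 3.71, 2.99 and 2.31 CPM (log2 fold change -1.20, SE 0.19, adjusted p = 3.68e-05). *LINC02897* fell from 1.92 ± 0.362 CPM to 0.914 ± 0.139 CPM (log2 fold change -1.06, SE 0.26, adjusted p = 0.00263) and *LINC02583* from 1.82 ± 0.0858 CPM to 0.875 ± 0.106 CPM (log2 fold change -1.05, SE 0.22, adjusted p = 8.37e-04). *LINC02901* had a log2 fold change of -1.07 (adjusted p = 0.0218). Its call was lost without KO shControl replicate 2 or 3 and without KO shMBD6 replicate 2 or 3, at adjusted p from 0.0789 to 0.0865. *LINC01126* had a log2 fold change of -1.06 (adjusted p = 0.00850; 0.0692 without KO shControl replicate 2).

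**Figure D4:**
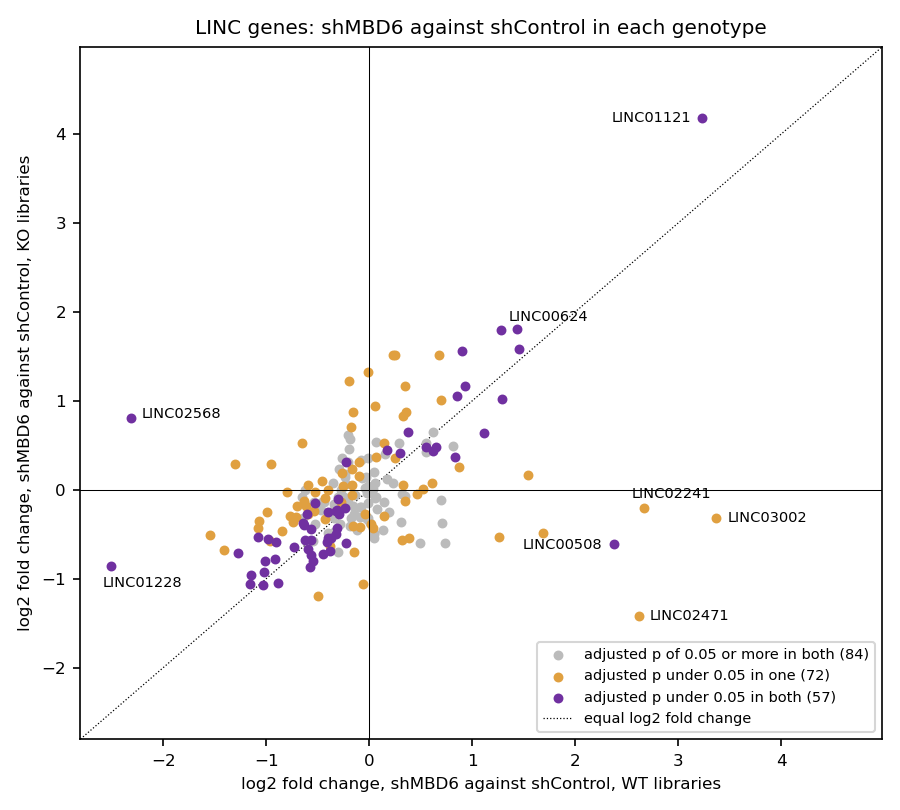
Log2 fold change of shMBD6 against shControl in WT libraries (x axis) and in KO libraries (y axis) for the 213 LINC genes, coloured by whether the adjusted p was under 0.05 in both, in 1 or in neither genotype. *LINC01121* is highest in KO and to the upper right, *LINC02568* lies in the upper left, and the genes at lower right were near 0 counts in WT.

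The effect of shMBD6 differed between genotypes for 44 members by the interaction term, 26 more positive in KO and 18 more negative. This is 20.7% of members, where 21.3% of all tested genes were called, 10.3% more positive and 11.0% more negative. With ERCC scaling 1 member was more positive and 152 were more negative, where the median of all tested genes shifted by -0.95. *LINC02568* had the most positive term, 3.12 (SE 0.70, adjusted p = 0.00274). With shMBD6 it fell in WT, as given above, and in KO it rose from 1.87 ± 0.477 CPM to 3.26 ± 0.451 CPM (log2 fold change 0.81, SE 0.25, adjusted p = 0.0159). The rise in KO was not called without KO shControl replicate 2 (adjusted p = 0.0991) or KO shMBD6 replicate 1 (0.0749). The others that went opposite ways were *LINC00508* and *LINC01234*. *LINC00508* fell in KO from 11.2 ± 0.380 CPM to 7.32 ± 0.420 CPM (log2 fold change -0.62, SE 0.13, adjusted p = 9.98e-04), and its interaction term was -3.00 (adjusted p = 0.00584), resting on 2 and 13 counts in WT.

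*LINC01234* (chr12:113583886-113773726, minus strand) was above 30 CPM in every library. It was at 37.8, 38.4 and 35.7 CPM in WT shControl, 32.3, 31.1 and 32.4 CPM in WT shMBD6, 36.5, 36.9 and 36.5 CPM in KO shControl and 39.6, 44.7 and 52.6 CPM in KO shMBD6. Its interaction term was 0.54 (SE 0.11, adjusted p = 8.17e-04), and -0.42 with ERCC scaling. *LINC01305* was at 1.99 ± 0.216 CPM, 2.35 ± 0.182 CPM, 0.730 ± 0.287 CPM and 2.11 ± 0.333 CPM in the same order of groups. It was low in KO shControl only, with an interaction term of 1.29 (SE 0.33, adjusted p = 0.00794) and a log2 fold change of 1.52 with shMBD6 in KO (adjusted p = 6.41e-05).

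*LINC01801* was low in WT shMBD6 alone, at 2.42 ± 0.646 CPM, 0.980 ± 0.0799 CPM, 2.01 ± 0.175 CPM and 2.45 ± 0.356 CPM (interaction 1.59, adjusted p = 7.47e-04). *LINC02449* was lowest in WT shControl, at 1.09, 1.15 and 0.522 CPM, with 2.24 ± 0.223 CPM, 2.36 ± 0.896 CPM and 1.62 ± 0.275 CPM in the other groups (interaction -1.79, adjusted p = 0.00247). *LINC01277* was highest in KO shMBD6, at 1.99, 2.59 and 1.92 CPM, and between 0.65 and 1.06 CPM in the other 9 libraries (interaction 1.33, adjusted p = 0.0175). Its call was lost without WT shControl replicate 2, KO shControl replicate 2 or KO shMBD6 replicate 2, at adjusted p from 0.0529 to 0.0636. *LINC01228* had a term of 1.64 (adjusted p = 0.0356). That call was lost without replicate 2 of any group and without KO shControl replicate 1 or 3, at adjusted p from 0.0543 to 0.166.

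With ERCC scaling the positive terms of *LINC01305*, *LINC01801*, *LINC01277* and *LINC01228* were 0.34, 0.63, 0.38 and 0.69, and none of the 4 was called.

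The negative terms were led by members near 0 in WT. *LINC03002* had -3.68 (adjusted p = 0.00768; 0.0501 without WT shMBD6 replicate 1), *LINC02241* -2.87 (adjusted p = 0.0294) and *LINC02505* -2.18 (adjusted p = 0.0218). The call of *LINC02241* was lost without WT shControl replicate 2 or 3 or WT shMBD6 replicate 1 or 3, at adjusted p from 0.0533 to 0.150. The call of *LINC02505* was lost without WT shControl replicate 1 or 2 or WT shMBD6 replicate 2, at adjusted p from 0.0592 to 0.124. Their fitted terms depend on the prior count, and in KO shMBD6 against KO shControl *LINC02241* and *LINC02505* were at 6.17 ± 0.365 CPM and 2.94 ± 0.0726 CPM against 7.12 ± 0.495 CPM and 4.13 ± 0.262 CPM.

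Single libraries stood apart for a few members. WT shControl replicate 2 was over 1.5 times both others of its group for 6 of 186 members at or above 1 CPM there, and WT shControl replicate 1 was below both by the same factor for 7. KO shMBD6 replicate 3 was above both others of its group for 6 of 200 members, 4 of them with a mean over all libraries of at least 3 CPM. *LINC00294* was at 6.49, 6.03 and 36.9 CPM in KO shMBD6, *LINC00491* at 3.71, 3.82 and 13.5 CPM, *LINC02377* at 4.12, 3.94 and 13.1 CPM and *LINC02616* at 32.1, 33.2 and 51.7 CPM. *LINC00294* was called higher with shMBD6 in KO (log2 fold change 1.23, SE 0.43, adjusted p = 0.0308), and without this library its log2 fold change was -0.18 (edgeR, adjusted p = 0.351). *LINC02616* was likewise called in that comparison (log2 fold change 0.37, SE 0.13, adjusted p = 0.0290), and without this library its log2 fold change was 0.10 (edgeR, adjusted p = 0.351). In KO against WT with shMBD6, *LINC00294* had a log2 fold change of 0.98 (edgeR, adjusted p = 0.0649), and of -0.43 without this library (edgeR, adjusted p = 0.00948). The log2 fold changes without this library were 0.89 for *LINC02616*, 1.25 for *LINC02377* and 0.78 for *LINC00491*, each still called by edgeR. Each of these 4 genes was named after its values were seen.

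A protein-coding gene lay within 10 kb of 78 members, and the median gap to the nearest one was 22202 bases. Of the nearest genes, 161 could be tested. Within 10 kb, 67 pairs were tested in KO against WT with shControl. Of these, 20 members were called, 11 together with their neighbour, 9 of the 11 in the same direction (Pearson's r 0.49, Spearman's rho 0.33 over pairs, as a description). Beyond 10 kb, 94 pairs gave 51 members called, 31 together with their neighbour, 24 of the 31 in the same direction (r 0.53, rho 0.30). Both values of r include pairs with genes near 0 counts in WT, whose fitted values depend on the prior count. With shMBD6 in KO the values were 21 called together and 13 in the same direction within 10 kb, and 16 and 6 beyond.

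Of the 12 members near 0 in WT, 8 had a nearest protein-coding gene that could be tested, and 6 of these neighbours were called higher in KO under both hairpins. Of protein-coding genes at or above 1 CPM, 25.4% were called higher with shControl and 26.2% with shMBD6. *CDH18* and *FAM110B* could be tested only through the KO groups where they were counted, so their rise was fixed by this filter. The share of protein-coding genes called higher under both hairpins was not counted, so the 6 of 8 are a description. The 6 neighbours called higher were *LRRK2*, *CDH18*, *SGK1*, *MEX3C*, *FAM110B* and *CA12*. The other neighbours, *CCDC74A* of *LINC01087* and *NSUN3* of *LINC00879*, had log2 fold changes of 0.64 and -0.45 with shControl and of -0.02 and -0.14 with shMBD6. *CDH18*, a cadherin gene 35933 bases from *LINC02241*, had 0 counts in WT shControl and was at 0.0756 ± 0.0415, 2.36 ± 0.28 and 1.80 ± 0.27 CPM in WT shMBD6, KO shControl and KO shMBD6. *FAM110B*, 10397 bases from *LINC01602*, had 0 counts in WT shControl and was at 0.0397 ± 0.0687, 1.76 ± 0.24 and 1.29 ± 0.19 CPM in the same groups. Both were called higher in KO under both hairpins by edgeR, and 0 counts allow up to 0.0312 CPM. *CA12*, which encodes a membrane carbonic anhydrase and lies 8290 bases from *LINC02568*, went from 3.93 ± 0.67 to 18.5 ± 1.47 CPM in KO with shControl (log2 fold change 2.25, SE 0.12, adjusted p = 2.86e-12). With shMBD6 the values were 2.42 ± 0.42 and 24.7 ± 1.47 CPM (log2 fold change 3.34, SE 0.13, adjusted p = 9.30e-15). With shMBD6 in WT it fell, as *LINC02568* did (log2 fold change -0.69, adjusted p = 7.44e-04), and its interaction term was 1.10 (adjusted p = 1.33e-04). With ERCC scaling these values were 0.45 and 0.14, and the interaction was no longer called.

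*LRRK2*, which overlaps *LINC02471*, rose from 2.75 ± 0.16 to 10.2 ± 1.36 CPM in KO with shControl (log2 fold change 1.89, adjusted p = 2.40e-10) and fell with shMBD6 in KO (log2 fold change -0.91), as *LINC02471* did. *SGK1*, which encodes a serum- and glucocorticoid-induced kinase, lies 202051 bases from *LINC03002* and was at 2.55 ± 0.63 and 5.37 ± 0.37 CPM (log2 fold change 1.08, adjusted p = 1.87e-05). *SP9*, which encodes a zinc-finger transcription factor, lies 4311 bases from *LINC01305* and was likewise higher with shMBD6 in KO. It was at 0.159 ± 0.0276 and 0.694 ± 0.292 CPM (log2 fold change 2.09, adjusted p = 0.00317). In WT, *SP9* was at 0.324 ± 0.231 CPM with shControl and 0.786 ± 0.143 CPM with shMBD6. All its group means were thus under 1 CPM, and its interaction term of 0.80 was not called (edgeR, adjusted p = 0.469). *ERC1*, 4592 bases from *LINC00942*, was at 41.6 ± 1.83 CPM in WT and 36.2 ± 2.05 CPM in KO with shControl (log2 fold change -0.20, adjusted p = 0.00998). That call was lost without WT shControl replicate 3 (adjusted p = 0.0583) or KO shControl replicate 2 (0.0750), and ERCC scaling turned the value to 1.06. Some neighbours moved the opposite way or did not pass the test in the comparison that named the member. *NAA11*, which encodes an N-terminal acetyltransferase and overlaps *LINC01088*, was at 29.7 and 36.5 CPM in WT shControl and shMBD6 (log2 fold change 0.30, adjusted p = 5.18e-04), where *LINC01088* fell. *CHD1L*, a chromatin remodeller gene overlapping *LINC00624* on the opposite strand, had a log2 fold change of -0.20 with shMBD6 in KO (adjusted p = 4.18e-04; -0.01 and not called with ERCC scaling), where *LINC00624* rose. *C1orf174*, 54 bases from *LINC01134*, had a log2 fold change of 0.05 with shMBD6 in WT (adjusted p = 0.639). *ZFP36L2*, 604 bases from *LINC01126*, had one of -0.07 with shMBD6 in KO (adjusted p = 0.225). *RIMKLB*, 5158 bases from *LINC02972*, had one of -0.13 in KO (edgeR, adjusted p = 0.142). *ZNF669*, 5788 bases from *LINC02897*, had one of 0.02 in KO (edgeR, adjusted p = 0.908). The interaction term of *AIG1*, 814 bases from *LINC01277*, was -0.12 (edgeR, adjusted p = 0.297).

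Set beside other classes at or above 1 CPM, members were called in 47.9% of cases in KO against WT with shControl, other long non-coding genes in 35.9% of 1161 and protein-coding genes in 52.6% of 11409. At least 2-fold changes were seen in 21.1% of members, 9.30% of other long non-coding genes and 6.42% of protein-coding genes. With shMBD6 in WT the 2-fold shares were 12.2%, 3.96% and 3.52%. The median absolute log2 fold change in KO against WT with shControl was 0.37 for members, 0.30 for other long non-coding genes and 0.19 for protein-coding genes. These classes differ in their level, on which the precision depends, and the shares are descriptions. The members' shares in KO against WT include genes that reached the 1 CPM mean through KO libraries alone.

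Of 32 well-studied long non-coding RNAs outside the LINC names, 30 could be tested. In KO against WT with shControl, 13 were higher and 6 lower, where 42.8% of all tested genes were called. With shMBD6, 15 were higher and 8 lower in KO, where 44.5% were called. For shMBD6 against shControl, 9 were higher and 8 lower in WT, and 8 higher and 9 lower in KO. Of all tested genes, 39.6% and 34.8% were called there. The list holds abundant RNAs such as *MALAT1*, at a mean of 2870 CPM, so its precision differs from that of the members. Of the 32, *NORAD*, which binds Pumilio proteins, was at 299, 314, 355 and 314 CPM in WT shControl, WT shMBD6, KO shControl and KO shMBD6. Of 17 LINC symbols with documented products, 7 were members. The match was by symbol in GENCODE release 44, where a renamed gene would not be found. The other symbols are therefore not shown to be absent or low. *LINC00467*, part of whose transcripts encodes a mitochondrial micropeptide, was at 47.7 ± 4.20 CPM, 36.2 ± 2.63 CPM, 46.6 ± 1.77 CPM and 39.3 ± 1.02 CPM in this order. *LINC00963* was at 103 ± 5.50 CPM, 71.6 ± 0.706 CPM, 101 ± 1.83 CPM and 91.4 ± 1.72 CPM, and its 3 WT shMBD6 libraries lay below all other libraries. *LINC00667* and *LINC00665* had group means between 36.4 and 41.7 CPM and between 10.0 and 11.8 CPM. *LINC00173*, *LINC00674* and *LINC00853* had group means between 4.31 and 5.27 CPM, between 2.57 and 3.47 CPM and between 0.85 and 1.18 CPM.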

How the data were processed

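Of the series, the 12 K-562 RNA-seq libraries were used, 3 in each of 4 groups, and the mouse libraries were not used here. Per the submitters' processing notes, reads were trimmed with Trimmomatic 0.39, aligned with HISAT2 2.2.1 and counted with HTSeq 0.12.4. The build was hg38 with ERCC sequences, and the annotation was GENCODE release 29. The authors deposited whole-number counts per gene and library, with no normalization. Reads in no feature were 10.4 to 13.8%, ambiguous reads 4.01 to 4.33% and multiply aligned reads 6.04 to 6.43% of all reads listed, and none of these entered the tests.

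Gene names, coordinates and exon lengths came from GENCODE release 44 on hg38, and 58207 of 58721 gene rows matched by identifier. Exon lengths can differ from the release used for counting. Counts were fitted in edgeR 4.0.16 (R 4.3.3) with filterByExpr, TMM normalisation, 1 coefficient for each group and the quasi-likelihood test, and p-values were adjusted over 17936 genes by the Benjamini-Hochberg method. The SE is the log2 fold change divided by the square root of F. The method was tested on simulated data. DESeq2 1.42.0, ERCC scaling, DESeq2 size factors, no filter, a replicate block, fits of only the groups compared, other membership limits and leaving out each library were alternatives. DESeq2, with an ERCC term in its size factors, was the study's own method.

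Named genes were the 10 highest per kb, the 6 largest called rises and falls in each pairwise comparison, the 5 largest interaction terms of each sign, members called in opposite directions, the 3 nearest to the limit on each side, documented symbols, and protein-coding neighbours within 10 kb. Promoter windows were taken for the 2 largest rises and falls in KO under both hairpins and the 2 largest interaction terms, and 1 of these windows is not reported here. The members and all lists were chosen with earlier results of these data known. The study calls the replicates behind its sequencing data biological, and the labels do not say whether they are separate cultures, so p-values measure the spread between these libraries. Libraries with the same replicate number did not deviate together.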

Additional observations from a re-analysis of the deposited data

Results flagged for a closer look

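For 11 members the effect of shMBD6 differed between KO and WT cells by the interaction term of the edgeR fit, among those named. The term (effect in KO minus effect in WT, log2) was 3.12 for *LINC02568*, 1.64 for *LINC01228*, 1.59 for *LINC01801*, 1.33 for *LINC01277*, 1.29 for *LINC01305* and 0.54 for *LINC01234*. It was -3.68 for *LINC03002*, -3.00 for *LINC00508*, -2.87 for *LINC02241*, -2.18 for *LINC02505* and -1.79 for *LINC02449*. Of these, *LINC03002*, *LINC00508*, *LINC02241* and *LINC02505* had between 1 and 6 counts over the 3 WT shControl libraries. The part of these low counts in the terms was not tested.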

How the results depend on the processing

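With ERCC scaling, 200 members were called in KO against WT with shControl (197 higher), 181 for shMBD6 in WT (180 higher) and 153 for the interaction (152 more negative), where TMM gave 102, 98 and 44. In KO against WT with shMBD6 and for shMBD6 in KO, ERCC scaling gave 139 and 89 members, where TMM gave 106 and 88. It turned the sign of *LINC00656* in KO against WT with shControl (0.0243), of *LINC01234* in the interaction (-0.42), of *ERC1* in KO against WT with shControl (1.06) and of *CA12* for shMBD6 in WT (0.45). The comparisons of these sign changes all include WT shControl, the group with the most ERCC counts per gene count. So do those in which ERCC scaling added the most calls. The cause of the difference between ERCC and gene counts was not tested. Restricted to the 115 members that share no exon base, 57, 64, 56, 50 and 25 were called in the 5 comparisons, a shorter list. Leaving out 1 library at a time gave 90 to 108 members in KO against WT with shControl, 96 to 107 with shMBD6, 85 to 106 for shMBD6 in WT, 72 to 90 in KO and 38 to 49 for the interaction. Replicate numbers did not pair the libraries: the deviations of same-numbered libraries had a median correlation of -0.0017 over 18 pairs. With a replicate block 100, 103, 97, 89 and 44 members were called. DESeq2 called 98, 105, 91, 86 and 44, DESeq2 size factors in edgeR gave 102, 107, 98, 89 and 44, and no low-count filter gave 95, 105, 92, 85 and 42. The restriction to members outside chromosomes 7, 8 and 15 was chosen after seeing the data. Of 1691 refits of single genes, 1631 kept direction and side of the threshold, 56 lost the call and 4 reversed. *LINC02241* lost its call for shMBD6 in WT and for the interaction with DESeq2 (adjusted p = 0.0555 and 0.0655) and without the low-count filter (0.0524 and 0.0526). The share of exons in repeats was not computed, because the genome used carries no repeat mask. At 27625013 to 39877202 counts per library, members near 0 rest on a few counts a group.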
